A study of Mus musculus with 6 samples.

Results

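The *Bcl2* family of cell death regulators and the initiator caspase *Casp9* were followed in the cochlea of aged mice that lack *Cmah*. The group was defined by name as 9 genes, *Bcl2*, *Bcl2l1*, *Mcl1*, *Bax*, *Bak1*, *Bad*, *Bid*, *Bbc3* and *Casp9*, and every probe with one of these symbols was taken. That gave 17 of the 25697 probes on the array, or 9 of its 18138 symbols, and 4 of the genes had a single probe. Although the working name of the group also mentioned executioner caspases, none of the 9 genes is one. *Casp9* acts upstream of that class.

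*Cmah* encodes the hydroxylase that turns the sialic acid Neu5Ac into Neu5Gc. The null mice carried the *Cmah* tm1Ykoz knockout allele, and the other group was WT. Both groups had an age of 12 months and a background that the sample records give as C57BL/6 and the methods as C57BL/6J, and no sex is recorded. The study stained dying cells in the cochlea of these mice, and the arrays allow the question of whether transcripts of the mitochondrial death machinery differed as well. For each of 3 WT and 3 *Cmah*-null samples, cochlear RNA was hybridized to 1 Illumina MouseRef-8 v2 array. Each group had 3 mice by the methods, but the records do not say which mouse gave which sample or whether RNA was pooled, so the p-values measure the spread between these samples, part of which may be technical. In the deposited tables the second group is headed "old", and it was matched to the *Cmah*-null samples because it is the other group of 3 with the same numbering. The probe for *Cmah* itself (ILMN_2606825) was detected on 1 WT array and 2 *Cmah*-null arrays and lay too near background to check a genotype.

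Mitochondrial apoptosis is governed by the balance among Bcl2 family proteins. Anti-apoptotic members such as BCL2, BCL-XL (from *Bcl2l1*) and MCL1 hold the pore-forming effectors BAX and BAK in check. BH3-only proteins such as BAD, BID and PUMA (from *Bbc3*) bind the guardians or engage the effectors, and open pores then release cytochrome c, which assembles APAF1 and caspase 9 into the apoptosome. In the inner ear this route is known from the death of hair cells and spiral ganglion neurons after noise, ototoxic drugs and ageing.

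The arrays read each gene through one or a few 50-base probes, so a value describes the stretch of transcript that its probe matches. The probe of *Bax* and one probe of *Bcl2l1* are shown because each lies in the coding sequence of a known functional region. The *Bax* probe matches the part that encodes the C-terminal membrane anchor. The *Bcl2l1* probe matches the BH1 region, and capitals mark the 4 codons at the core of its motif, which begin at base 28 of the probe and end at base 39.

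Bax (ILMN_2907655): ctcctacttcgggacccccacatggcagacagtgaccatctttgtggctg
Bcl2l1 (ILMN_2742557): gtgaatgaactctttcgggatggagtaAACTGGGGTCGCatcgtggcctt

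The next probes carried the differences described below, and their first 30 bases are given. The *Bcl2* probes are annotated to transcript variants 1 and 2, so they do not read the same set of *Bcl2* messages.

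Mcl1 (ILMN_1216732): ctggtagagcacctaacactttaacagctg
Bcl2, variant 1 (ILMN_1249021): gggcagcttttaaggttgatacttttaggc
Bcl2, variant 2 (ILMN_2682162): atgagtctgggctttgatctcaaggccaag
Bid (ILMN_3161878): tgtgctgaactttgcttaaagctgggatcg

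The probes of *Bbc3* are shown for their overlap. A pair of them share 46 of their 50 bases, 26 of which fall within the 30 bases printed and stand in capitals, so this pair reads nearly the same site. The probe at 1650 shares no such stretch with either.

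Bbc3 at 1503 (ILMN_2690621): acgtGTGACCACTGGCATTCATTTGGGGGG
Bbc3 at 1508 (ILMN_2690620): GTGACCACTGGCATTCATTTGGGGGGtggg
Bbc3 at 1650 (ILMN_2920736): gagggacggcccagcctgtaagatactgta

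Numbers such as 1503 are the position of the probe in its transcript as the deposited annotation gives it, and they name the probes from here on. The annotation places *Bcl2* in band 1qE2.1, *Bcl2l1* in 2qH1, *Mcl1* in 3qF2.1, *Casp9* in 4qE1, *Bid* in 6qF1, *Bbc3* in 7qA2, *Bax* in 7qB4, *Bak1* in 17qA3.3 and *Bad* in 19qA. It names no genome build, and none of the 16 member probes with coordinates fell within the same gene of the GRCm38 gene table, so no coordinates are given.

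Between 13873 and 15223 probes were detected per array, at a detection p under 0.05 against the negative control beads. Of the 17 member probes, 9 were detected on all 6 arrays, 4 on 1 to 5 arrays and 4 on none. The median bead error of a member probe ranged from 2.69% to 6.22% of its signal. *Cmah*-null replicates 1 and 2 were closer than any other pair of arrays, with an SD of the log2 difference over the 12410 probes detected on all arrays of 0.14 against 0.39 to 0.85. *Cmah*-null replicate 3 stood apart, since it was the highest or the lowest of the 6 arrays in 68.3% of these probes, against 15.6% to 42.2% for the other arrays. Arrays also differed in beads, with a median per probe of 32 to 34 for 1 WT array (replicate 1) and 2 *Cmah*-null arrays (replicates 1 and 2) against 38 to 39 for the rest, so each of these sets held both genotypes. As to cell types, the hair cell genes *Pou4f3*, *Slc26a5* and *Strc* and the support cell gene *Tectb* were detected on no array. The other 5 of the 8 hair cell genes measured, *Myo7a*, *Otof*, *Myo6*, *Espn* and *Tmc1*, were detected on all 6 arrays, and *Otoa*, *Coch*, *Gjb2* and *Gjb6* of support cells and otic matrix were as well. In such tissue RNA, fewer cells of a type and less RNA per cell cannot be told apart.

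*Mcl1*, *Bcl2* and *Bid* had the clearest differences, all with higher signal in the *Cmah*-null cochlea, by 0.28 to 0.34 on the log2 scale. *Bax*, *Bad* and *Casp9* differed by less than 0.1, and the value of *Bbc3* at 1650 was set by a single array. At an adjusted p under 0.05 limma called 0 of the 17 member probes, and it called 0% of all probes, whose lowest adjusted p was 0.250. Adjusted p-values of the members lay between 0.402 and 0.997. At an unadjusted p under 0.05, 3 member probes were higher, where 4.77% of all probes were, and 0 were lower, where 3.78% of all probes were. The same 3 lie among the 9 detected on all arrays, and 7.79% of all probes so detected were higher at that threshold. The study's results used a difference of at least 1.5-fold with p under 0.05 and named no test for it. Taken with the unadjusted limma p, that rule was met by 0 member probes and by 2.71% of all probes. The groups did not overlap in 4 member probes, all higher in *Cmah*-null mice, against 9.11% of all probes that were higher and 7.33% that were lower without overlap. In all, 14 member probes had a higher mean and 3 a lower mean in *Cmah*-null mice. Their median log2 difference was 0.12, that of all probes 0.002. With 3 arrays against 3, an exact two-sided permutation test cannot give a p below 0.1, so no such p is given for single probes.

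**Figure D1:**
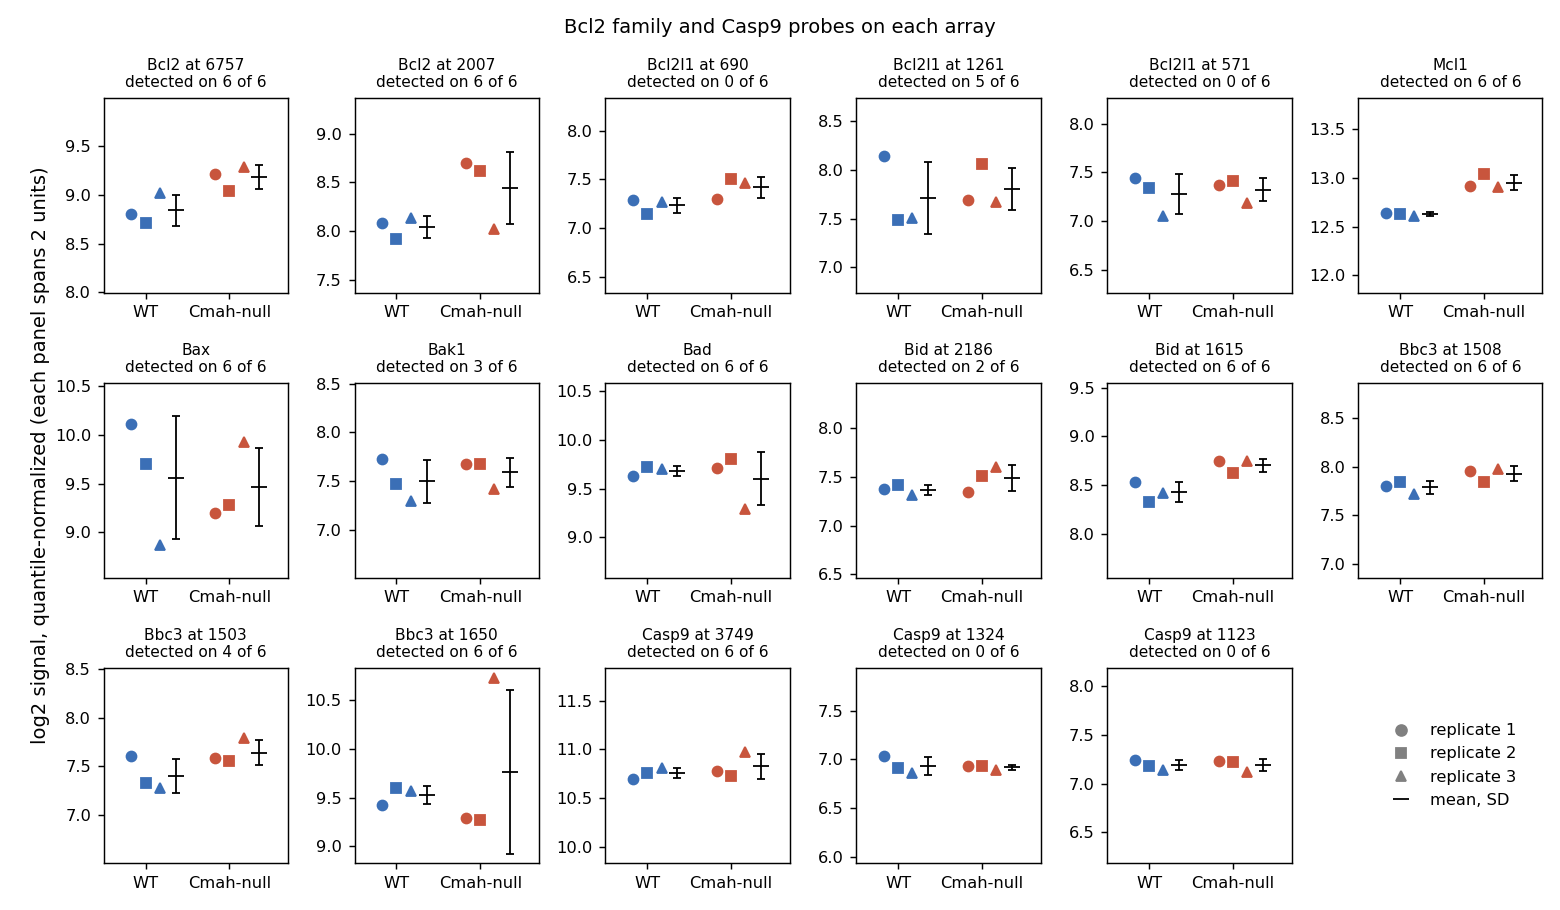
Log2 signal (vertical axis, quantile-normalized) of each of the 17 probes on each array, with WT in blue, *Cmah*-null in red, replicates 1 to 3 as circles, squares and triangles, and the mean with its SD in black. The *Cmah*-null points of *Mcl1*, of *Bcl2* at 6757 and of *Bid* at 1615 lie above all WT points, and *Cmah*-null replicate 3 lies alone at 10.73 for *Bbc3* at 1650.

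Of the anti-apoptotic genes, *Mcl1* encodes a short-lived guardian that binds BAK and several BH3-only proteins. Its log2 signal was 12.64, 12.63 and 12.61 in WT and 12.92, 13.04 and 12.91 in *Cmah*-null mice. The *Cmah*-null arrays lay together and above WT, with a gap of 0.26 between the groups, while the WT arrays had an SD of only 0.02. The difference was 0.33 ± 0.07 (SE, n = 3 per group, 95% interval 0.15 to 0.51, limma, adjusted p = 0.402), a 1.25-fold higher signal. By its p, *Mcl1* took rank 283 of the 25697 probes. The difference was 0.33 within the set of arrays with fewer beads and 0.29 within the set with more, so each set gave nearly the same value. Leaving out any array kept it between 0.28 and 0.35 and under the unadjusted threshold. Over all 13 alternative settings its p passed the unadjusted threshold in 12, and missed it with a trended and robust variance prior.

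*Bcl2*, the founding anti-apoptotic gene of the family, was read by a pair of probes detected on all arrays. At 6757, on variant 1, the log2 signal was 8.81, 8.71 and 9.02 in WT and 9.22, 9.04 and 9.29 in *Cmah*-null mice. The groups were separated by only 0.03, between WT replicate 3 and *Cmah*-null replicate 2. The difference was 0.34 ± 0.12 (SE, n = 3 per group, 95% interval 0.05 to 0.62, limma, adjusted p = 0.546). It stayed positive in all 13 settings, from 0.27 to 0.59, and its p was under 0.05 in 7 of them. That p missed 0.05 when WT replicate 1 or 2, or replicate 1 or 3 of the *Cmah*-null group, was left out.

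At 2007, on variant 2, the *Bcl2* signal was 8.08, 7.92 and 8.13 in WT and 8.70, 8.61 and 8.02 in *Cmah*-null mice. Here *Cmah*-null replicates 1 and 2 were high, but replicate 3 fell within the WT range, so the groups overlapped. The difference was 0.40 ± 0.20 (SE, n = 3 per group, 95% interval -0.08 to 0.89, limma, adjusted p = 0.630). Without *Cmah*-null replicate 3 it was 0.62 (limma, adjusted p = 0.140), and no other left-out array took its unadjusted p under 0.05. The *Cmah*-null group then held only replicates 1 and 2, the closest pair of arrays, so the p rests on their small spread. Both probes thus had a higher mean in *Cmah*-null mice, and they disagreed on replicate 3, which gave the highest signal of all at 6757.

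*Bcl2l1*, the source of the anti-apoptotic BCL-XL, was near background by all 3 of its probes. At 1261, detected on 5 arrays, the signal was 8.14, 7.49 and 7.51 in WT and 7.70, 8.06 and 7.67 in *Cmah*-null mice. One array of each group was high and the groups overlapped, with a difference of 0.10 ± 0.22 (SE, n = 3 per group, 95% interval -0.43 to 0.63, limma, adjusted p = 0.919). At 690 the *Cmah*-null arrays, 7.30 to 7.50, lay above the WT arrays, 7.15 to 7.29, but the probe was detected on no array. The BH1 probe at 571 was likewise detected nowhere and differed by 0.05.

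*Bax* and *Bak1* encode the effectors that form the mitochondrial pore. The *Bax* signal was 10.11, 9.70 and 8.87 in WT and 9.20, 9.28 and 9.93 in *Cmah*-null mice. All 3 *Cmah*-null arrays lay inside the WT range, and the WT arrays alone differed by more than 1 log2 unit. The difference was -0.09 ± 0.37 (SE, n = 3 per group, 95% interval -0.99 to 0.81, limma, adjusted p = 0.958), an interval wide enough to hold a change of 1.5-fold either way. It had opposite signs within the bead sets, at -0.88 with fewer beads and 0.64 with more, where each set had a single array of one genotype. Leaving out WT replicate 3 gave -0.44, while leaving out WT replicate 1 gave 0.18, and neither passed the unadjusted threshold. For *Bak1*, detected on 1 WT and 2 *Cmah*-null arrays, the signal was 7.73, 7.47 and 7.29 in WT and 7.67, 7.67 and 7.42 in *Cmah*-null mice. It differed by 0.09 ± 0.14 (SE, n = 3 per group, limma, adjusted p = 0.877) with overlapping groups.

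Among the BH3-only genes, *Bid* encodes the protein that caspase 8 cleaves to carry a death receptor signal to mitochondria. At 1615 its signal was 8.54, 8.33 and 8.42 in WT and 8.74, 8.63 and 8.74 in *Cmah*-null mice. All *Cmah*-null arrays were above all WT arrays, with a gap of 0.09. The difference was 0.28 ± 0.09 (SE, n = 3 per group, 95% interval 0.06 to 0.49, limma, adjusted p = 0.527), and it was 0.15 within the set with fewer beads and 0.37 within the set with more. It was positive in all 13 settings, from 0.23 to 0.45, and passed an unadjusted p of 0.05 in 7. That p missed 0.05 without WT replicate 2 or 3 and without replicate 1 of the *Cmah*-null group. The other *Bid* probe, at 2186, was detected on 2 *Cmah*-null arrays and on none of WT, and it differed by 0.12 ± 0.09 (SE, n = 3 per group, limma, adjusted p = 0.744).

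*Bad*, whose protein binds BCL2 and BCL-XL when survival kinases leave it unphosphorylated, gave 9.63, 9.72 and 9.70 in WT and 9.72, 9.80 and 9.29 in *Cmah*-null mice. Replicate 3 of the *Cmah*-null group was the lowest array and the other two lay near the top of WT or above it. The difference of -0.08 ± 0.15 (SE, n = 3 per group, limma, adjusted p = 0.897) was smaller than that spread.

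*Bbc3* encodes PUMA, a p53 target that binds all the main guardians. Its probe at 1650 gave 9.43, 9.60 and 9.56 in WT and 9.28, 9.27 and 10.73 in *Cmah*-null mice. *Cmah*-null replicate 3 was the highest array by more than 1 log2 unit, and replicates 1 and 2 were the lowest. The difference was 0.24 ± 0.41 (SE, n = 3 per group, 95% interval -0.77 to 1.24, limma, adjusted p = 0.894), and without replicate 3 it turned to -0.25 (limma, adjusted p = 0.331). That fit had only the closely alike *Cmah*-null replicates 1 and 2 in its group. The overlapping pair differed by 0.14 ± 0.08 at 1508, detected on all arrays, and by 0.24 ± 0.12 at 1503, detected on 4 (SE, n = 3 per group), with adjusted p-values of 0.683 and 0.646 in limma. On *Cmah*-null replicate 3 the pair gave 7.98 and 7.79, the highest of the 6 arrays by at most 0.19, so the excess at 1650 was not matched at the site the pair reads.

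*Casp9*, the initiator caspase of the apoptosome, was detected through its probe at 3749 alone. The signal there was 10.70, 10.76 and 10.81 in WT and 10.77, 10.73 and 10.97 in *Cmah*-null mice. Apart from *Cmah*-null replicate 3, all arrays lay within 0.11 of each other. The difference was 0.07 ± 0.09 (SE, n = 3 per group, 95% interval -0.16 to 0.30, limma, adjusted p = 0.857), so the interval leaves out a 1.5-fold change in either direction. With arrays scaled to 1 median instead, the value was 0.54 (limma, adjusted p = 0.223), which passed the unadjusted threshold without overlap of the groups, where the median of all detected probes lay at 0.30. Some other bright probes moved up further than that median under this scaling, as given below. At 1123 and 1324 the probes were detected on no array and differed by 0.00 and -0.01.

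**Figure D2:**
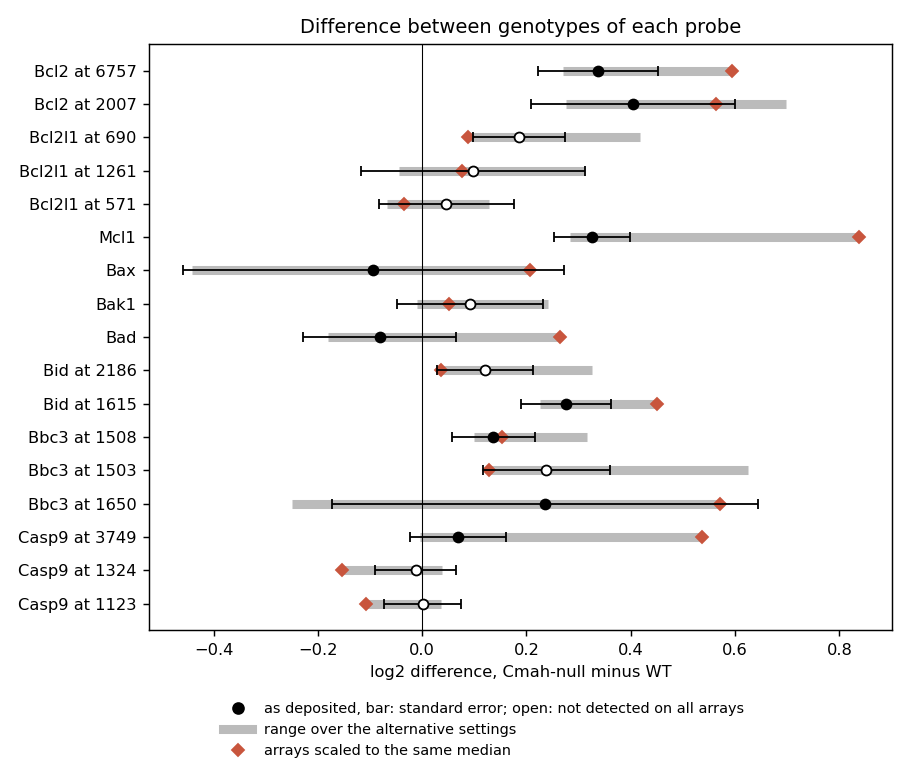
Log2 difference, *Cmah*-null minus WT (horizontal axis), of each probe, with the standard error as a bar, the range over the alternative settings as a grey band and the value with arrays scaled to 1 median as a diamond. Open circles are probes not detected on all arrays. *Mcl1*, *Bcl2* at 6757 and *Bid* at 1615 stay above 0 in every setting. So do *Bcl2* at 2007, *Bcl2l1* at 690, *Bid* at 2186 and *Bbc3* at 1503 and 1508, in every setting that kept the probe. Staying above 0 therefore does not set *Mcl1*, *Bcl2* at 6757 and *Bid* at 1615 apart. *Bax*, *Bad* and *Bbc3* at 1650 are among the probes that cross 0.

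The relation of *Bax* to *Bcl2* is often read as a death-to-survival balance. Signals of different probes are not on a common scale, so only its change was taken, from *Bax* minus *Bcl2* at 6757 on each array relative to the WT mean. It was 0.59, 0.28 and -0.87 in WT and -0.74, -0.48 and -0.08 in *Cmah*-null mice. WT replicate 3 was the lowest of all, and the *Cmah*-null arrays lay within the WT range. The mean change was -0.43, below the WT SD of 0.77 (n = 3), and with *Bcl2* at 2007 it was -0.50. Without WT replicate 3 it was -0.87 and without WT replicate 1 it was -0.14.

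**Figure D3:**
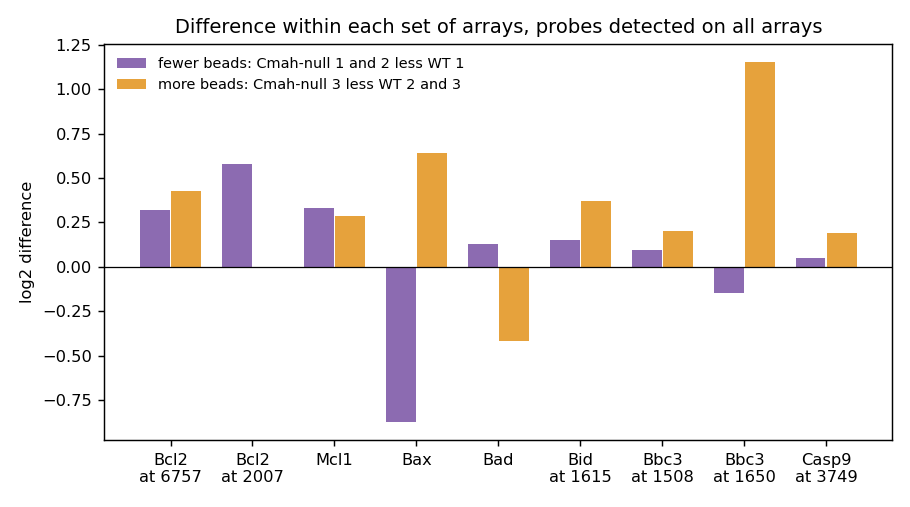
Log2 difference (vertical axis) of the 9 probes detected on all arrays, computed apart within the arrays with fewer beads per probe (purple, *Cmah*-null replicates 1 and 2 less WT replicate 1) and with more (orange, *Cmah*-null replicate 3 less WT replicates 2 and 3). *Mcl1*, at 0.33 and 0.29, and *Bcl2* at 6757, at 0.32 and 0.42, hold within both sets, whereas *Bcl2* at 2007 is 0.58 with fewer beads and -0.003 with more, and *Bax*, *Bad* and *Bbc3* at 1650 change sign.

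The deposited values had been forced to 1 distribution on all arrays. With each array scaled to the same median and no such step, the median of the 12410 probes detected on all arrays moved from 0.03 to 0.30, so differences under that scaling were read against 0.30. Relative to it, *Mcl1* differed by 0.54, *Bcl2* at 6757 by 0.29, *Casp9* at 3749 by 0.24 and *Bid* at 1615 by 0.15. That median covers dim and bright probes, and the shift was not the same for all. The bright probes of *Mdm2* (ILMN_1250774) and *Vdac1* moved from 0.15 and -0.06 to 0.64 and 0.44 under that scaling. Values relative to 0.30 may therefore still hold part of the shift for bright probes such as *Mcl1* and *Casp9* at 3749. *Bax* and *Bad*, which turned positive under that scaling, differed by -0.09 and -0.03 relative to the shift.

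For *Bcl2* at 6757, *Mcl1* and *Bid* at 1615, the probes with the most similar pattern were sought among the 12410 detected on all arrays, by the root-mean-square difference of array values after centring each probe. Nearest to *Mcl1* were *Pdlim1*, *Abat* and *Sv2a*, at 0.04 log2 units over the 6 arrays. *Qrich1*, *Lca5* and *Rnf103* came nearest to *Bcl2*, at 0.05 to 0.06, and *Ube2d2*, *Tsga14* and *Cyp4f15* to *Bid*, at 0.03 to 0.04. Because they were chosen by likeness over these same arrays, their own differences between genotypes, 0.26 to 0.33, were bound to be similar.

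Beyond the 9 genes, 47 other genes were listed, of the mitochondrial death pathway, caspases with their adaptors and inhibitors, and p53 with its targets. Of these, 43 had a probe, 12 of them p53 and its targets, and the brightest probe was used. At an unadjusted p under 0.05 in limma, 1 was higher and 6 were lower in *Cmah*-null mice, beside 4.77% and 3.78% of all probes, and 0 passed an adjusted p of 0.05, the lowest being 0.436. Their median log2 difference was -0.03. The groups did not overlap in 2 genes that were higher and 5 that were lower, beside 9.11% and 7.33% of all probes.

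The gene that was higher was *Bcl2l11*, the source of the BH3-only protein BIM, which binds every guardian. Its signal was 8.96, 9.02 and 9.13 in WT and 9.33, 9.27 and 9.88 in *Cmah*-null mice. The groups did not overlap, and *Cmah*-null replicate 3 was again the highest array. The difference was 0.46 ± 0.18 (SE, n = 3 per group, limma, adjusted p = 0.579), and it was 0.26 without that replicate. Another *Bcl2l11* probe detected on all 6 arrays (ILMN_2590638) differed by only 0.08 ± 0.10 (SE, n = 3 per group, limma, adjusted p = 0.843), with overlapping groups. The remaining *Bcl2l11* probes were detected on no array and differed by 0.04 and -0.07, so the higher signal rested on the brightest probe. The other 6 BH3-only genes listed, *Bmf*, *Bik*, *Hrk*, *Pmaip1*, *Bnip3* and *Bnip3l*, did not pass. Neither did *Bcl2l2*, which encodes the guardian BCL-W, at 0.19 ± 0.14, nor *Bok*, a relative of the effectors, at 0.32 ± 0.22 (SE, n = 3 per group).

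The 6 with lower signal were *Cycs*, *Htra2*, *Bcl2l13*, *Vdac2*, *Vdac3* and *Sesn2*. *Cycs*, which encodes cytochrome c, a carrier of respiratory electrons until its release, gave 8.83, 10.03 and 9.68 in WT and 8.32, 8.27 and 8.47 in *Cmah*-null mice. Every *Cmah*-null array was below every WT array, and WT replicate 1 was well below the other WT arrays. The difference was -1.16 ± 0.31 (SE, n = 3 per group, limma, adjusted p = 0.454). The other *Cycs* probe (ILMN_3076459), also detected on all 6 arrays, differed less, by -0.46 ± 0.12 (SE, n = 3 per group, limma, adjusted p = 0.458), again without overlap. *Htra2*, a protease of the intermembrane space that counters caspase inhibitors once released, differed by -0.29 ± 0.08 (SE, n = 3 per group, limma, adjusted p = 0.463). *Bcl2l13*, an outer membrane relative of the family, differed by -0.35 ± 0.09 (SE, n = 3 per group, limma, adjusted p = 0.436), and the groups overlapped for neither gene.

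*Vdac2* and *Vdac3*, channels of the outer membrane, differed by -0.42 ± 0.17 and -0.58 ± 0.23 (SE, n = 3 per group), with adjusted p-values of 0.580 and 0.582 in limma. *Sesn2*, a stress-induced p53 target, differed by -0.37 ± 0.13 (SE, n = 3 per group, limma, adjusted p = 0.549). Its probe was detected on 5 arrays, and the other *Sesn2* probe (ILMN_1219984), detected on no array, differed by -0.10. With arrays scaled to 1 median, the values of *Vdac2* and *Bcl2l13* became 0.08 and -0.05, against the shift of 0.30, so *Vdac2* changed sign unless read against that shift.

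*Apaf1*, the scaffold that cytochrome c and caspase 9 bind, gave 9.58, 9.91 and 9.70 in WT and 10.01, 9.81 and 9.97 in *Cmah*-null mice, with overlapping groups and a difference of 0.20 ± 0.11 (SE, n = 3 per group, limma, adjusted p = 0.676). Its other probe (ILMN_1228561), detected on 3 arrays, differed the opposite way, by -0.20 ± 0.08 (SE, n = 3 per group, limma, adjusted p = 0.595), with every *Cmah*-null array below every WT array. *Casp6*, a caspase that acts downstream, differed by -0.10 ± 0.23 (SE, n = 3 per group, limma, adjusted p = 0.921), also with overlapping groups. Its other probe (ILMN_2923864), likewise detected on all 6 arrays, differed by 0.17 ± 0.18 (SE, n = 3 per group, limma, adjusted p = 0.813), so the sign depended on the probe. *Trp53*, whose protein drives *Bbc3* transcription, differed by 0.61 ± 0.46 (SE, n = 3 per group, limma, adjusted p = 0.743), and its groups overlapped too. Of the 31 listed genes detected on all arrays, *Cmah*-null replicate 3 was the highest array in 9 and the lowest in 12.

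**Figure D4:**
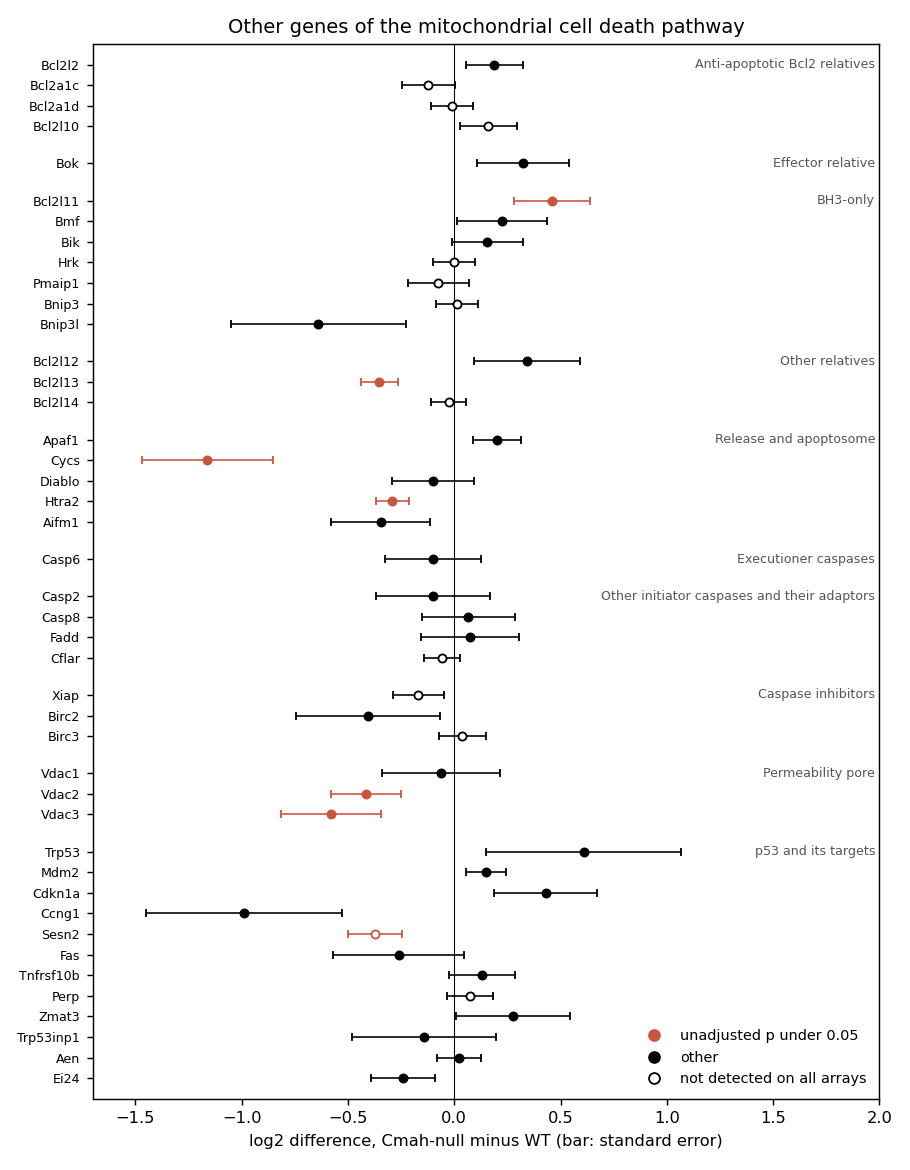
Log2 difference, *Cmah*-null minus WT (horizontal axis), of the 43 other pathway genes with a probe, grouped by role, with standard errors as bars. Red marks an unadjusted p under 0.05 in limma and open circles mark genes not detected on all arrays. *Bcl2l11* at 0.46 is the red gene on the higher side, and *Cycs* at -1.16 is the farthest on the lower side.

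Markers of other tissues were compared beside these values. All 5 brown fat markers had a lower mean in *Cmah*-null mice, 4 of them at an unadjusted p under 0.05 in limma, and none was at background on all arrays. Their summed linear signal was 36349 to 57179 in WT and 7608 to 22139 in *Cmah*-null mice, without overlap. All 8 skeletal muscle markers also had a lower mean, with sums of 125484 to 226105 in WT and 125923 to 166343 in *Cmah*-null mice. All 5 macrophage markers had a higher mean, with sums of 3417 to 4068 and 3468 to 6527, as had all 3 T cell markers, with sums of 520 to 633 and 681 to 981. All 4 epidermis markers had a higher mean, with a median log2 difference of 0.90 and sums of 28704 to 111472 in WT and 94871 to 106921 in *Cmah*-null mice. All 4 myelin markers had a lower mean, with a median of -0.48 and sums of 34670 to 90050 and 37136 to 42697. Lower means were also found for all 4 bone markers, with sums of 7629 to 57838 and 15799 to 16993, and for all 5 neuron markers, with sums of 3799 to 8119 and 3557 to 6013, of which *Nefl* and *Snap25* were detected on no array. In the remaining lists directions were mixed. The mean was higher for 7 of 8 hair cell, 5 of 7 support cell and otic matrix, and 1 of 3 stria vascularis markers. It was higher for 4 of 7 neutrophil and marrow, 2 of 6 erythroid and 1 of 4 B cell markers. The sums of the skeletal muscle, macrophage, epidermis, myelin, bone and neuron lists overlapped between the groups, whereas those of brown fat and T cells did not. The part of these tissues in the values of *Cycs*, *Vdac2*, *Vdac3*, *Mcl1*, *Bcl2* and *Bid* was not tested.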

How the data were processed

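Cochlear RNA of 3 WT and 3 *Cmah*-null samples was measured on 6 arrays. The authors deposited raw intensity values (average bead signal), with bead standard errors and bead numbers, and a detection p-value per probe, per the file headers. They also deposited log2 values, which are quantile-normalized without background correction, as checked against the raw signals. Scanner software and genome build are not given in the sources used here. A further 12 columns that repeat signals and detection p were not used, and the authors' own comparison columns were not used.

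The deposited log2 values were fitted by genotype alone with limma (version 3.58.1, R 4.3.3), and its two-sided p-values were adjusted by Benjamini-Hochberg over 25697 probes. The fit was tested on simulated data. The study's 1.5-fold threshold was also counted. All 9 genes were named with every probe. Of the pathway list, genes at an unadjusted p under 0.05, *Casp6*, *Cycs* and *Apaf1* were named, and other genes after their values were seen. Some listed genes are not reported here and were left out of the list's counts. Members and lists were chosen with earlier results of these data known. *Xiap* and *Aen* were read under the array's symbols Birc4 and Isg20l1. Alternatives were neqc (offset 16), median scaling, a filter on detection on at least 3 arrays, replicate and bead-number blocks, a trended robust prior, averaged *Cmah*-null replicates 1 and 2, other probes per gene, and each array left out. Probe sequences came from the deposited annotation. Plots used matplotlib 3.10.9 (Python 3.11.15). The number of arrays limits the precision.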

Additional observations from a re-analysis of the deposited data

How the results depend on the processing

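The count of member probes at an unadjusted p under 0.05 in limma was 3 as reported (8.56% of all probes passed), 1 among the 12 member probes left by the filter on detection (9.0%), 0 with the trended robust prior (7.93%), and 1 to 4 with an array left out (4.80% to 13.0%). It was 1 without WT replicate 2 (4.80%) or *Cmah*-null replicate 1 (5.78%) and 4 without *Cmah*-null replicate 3 (13.0%), of which *Bbc3* was lower and the other 3 higher. At 1.5-fold with that p, the count was 0 as reported (2.71% of all probes), 2 with median scaling (*Bcl2* and *Mcl1*, beside 9.68% of all probes) and 0 to 1 with an array left out (1.67% to 4.04%). The 1 was *Bcl2* without *Cmah*-null replicate 3, where 3.43% of all probes passed. Leaving out that replicate left the closest pair of arrays as the *Cmah*-null group, and the p-values of that setting rest on its small spread. *Bbc3* at 1650 reversed to -0.25 (limma, adjusted p = 0.331) without *Cmah*-null replicate 3, and with an array left out it ranged from -0.25 to 0.48. Of the pathway genes, 7 passed an unadjusted p of 0.05 as reported, 2 with the filter, 12 with the bead-number block (17.7% of all probes), 3 with the trended robust prior, 4 with *Cmah*-null replicates 1 and 2 averaged (5.84%), and 4 to 8 with an array left out, beside the shares of all probes given above for the other settings. It was 4 without WT replicate 2 or *Cmah*-null replicate 1. Their median was -0.03 as reported, 0.077 with median scaling and -0.05 to 0.002 with an array left out. With median scaling the median lay at 0.30 over probes detected on all arrays and at -0.01 over all probes. No member probe passed an adjusted p of 0.05 in any of the 13 settings. The change of *Bax* against *Bcl2* stayed negative in its 10 alternatives, from -0.87 to -0.14. Samples of the same number did not deviate together (correlations of 0.02, -0.17 and 0.01 over 12410 probes), so no pairing by number was seen. Such a comparison of 3 arrays per group cannot exclude a pairing. With the replicate block, 3 member probes and 9 pathway genes passed an unadjusted p of 0.05, beside 8.27% of all probes. The causes of these changes were not tested. The filter kept the 3 called member probes with the same differences but larger SEs, for *Mcl1* 0.13 against 0.07. *Bcl2l1*, *Bak1* and part of the probes of *Bid*, *Bbc3* and *Casp9* lie near background, where a difference is understated.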
